A study of Mus musculus with 15 samples.

Results

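Prostaglandin synthases and prostaglandin receptors were followed across 2 mouse medulloblastoma models and sorted cerebellar cells. The 10 genes listed were the cyclooxygenases Ptgs1 and Ptgs2, the synthases Ptgds, Ptges and Ptgis, and the receptors Ptger1, Ptger2, Ptger3, Ptger4 and Ptgfr. Every probe set that the platform annotation assigned to 1 of these genes alone was taken, which gave 18 probe sets for 9 genes, of 45141 probe sets and 17097 genes in all. Ptgs1 had no such probe set in the annotation used and was not analysed here. The list was selected on these arrays, because Ptger3 and Ptgds stood out in Myc tumours. The differences of Ptger3 and Ptgds between Myc tumours and the other groups are therefore descriptions without a test, whereas the other comparisons and the other 7 genes were tested.

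The data are 15 Affymetrix HT_MG-430_PM arrays of 1 colour, with 1 sample on each array and 3 samples in each of 5 groups. The Myc secondary tumours grew after sphere cells, cultured from primary tumours, were transplanted orthotopically. For the Myc primary tumours, cerebellar cells of genotype Cdkn2c-/-, Trp53-/-, Atoh1-GFP were infected with Myc and injected into the cortex of the cerebrum in nude mice, an immunocompromised host without T cells. The Shh tumours were medulloblastomas that arose spontaneously in Cdkn2c-/-; Trp53Fl/Fl; Nestin-Cre mice, where Cre is active in cells of the Nestin lineage. The GFP-positive and the GFP-negative cells were sorted from cerebella of Cdkn2c-/-, Trp53-/-, Atoh1-GFP animals at postnatal day 6, the reporter marking cells that express the granule neuron progenitor factor Atoh1. Every group therefore lacked Cdkn2c, and every group lacked Trp53, in the Shh tumours where Cre had acted. The 6 sorted samples carry labels that read spontaneous tumour, against the study's design text, on which the grouping used here rests. Before extraction with Trizol, cells of the tumours were dissociated and passed through a Percoll gradient. Whether replicate arrays stand for separate animals or, for the secondary tumours, separate cultures is not given in the labels, so p-values measure only the spread between these samples, which may be technical.

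All values are log2 signals, and a background of 4.77 was read from 23 nonspecific controls on the platform, at the 95th percentile of their signals. The array medians lay between 4.64 and 4.89, and 65.9% of genes had a group mean above background. Atoh1 averaged 5.31 in Myc secondary tumours, 4.62 in Myc primary tumours, 9.74 in Shh tumours, 8.92 in GFP-positive cells and 4.09 in GFP-negative cells. Of the sorted groups, the GFP-positive cells thus carried the marker, and it lay below background in the GFP-negative cells. Myc secondary array 1 stood apart from the other arrays of its group, with a correlation of 0.962 over all genes to each, against 0.994 between those arrays. GFP-negative array 3 had an interquartile range of 2.99, below the range of 3.33 to 3.78 on the other 14 arrays. Where the call of a listed gene changed without either array, the value without it is given beside the result.

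Prostaglandins are short-lived lipid signals made from arachidonic acid. A cyclooxygenase turns arachidonic acid into prostaglandin H2, and a terminal synthase turns that into prostaglandin E2 (Ptges), prostaglandin D2 (Ptgds) or prostacyclin (Ptgis). The products act on receptors coupled to G proteins: the 4 prostaglandin E2 receptors EP1 to EP4 are encoded by Ptger1 to Ptger4, and Ptgfr encodes the prostaglandin F receptor. EP2 and EP4 raise cyclic AMP, EP3 mostly lowers it and EP1 acts through calcium. In the brain, the lipocalin-type synthase Ptgds is known as an abundant product of the leptomeninges, choroid plexus and oligodendrocytes, and Ptgs2 as a gene induced by activity and inflammation.

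Windows of 300 bases around the RefSeq start, 250 before and 50 after, were found for 8 of the 10 genes on GRCm38.p6, Ptgis and Ptger1 being unmatched. They were searched on both strands for the canonical E-box CACGTG, the sequence bound by Myc with Max, and for the GC box GGGCGG, and these motifs do not overlap each other. The stretches below are shown because Ptger3 and Ptgds are the genes for which the list was chosen and because Ptgs2 held the E-box. Ptger3 (chr3:157566626-157566820, plus strand) is printed up to the start of its annotated gene span, Ptgds (chr2:25469750-25469779, minus strand) for the 30 bases before its start, which lie inside the longer gene span in RefSeq, and Ptgs2 (chr1:150100035-150100064, plus strand) for 30 bases of the transcribed side. Capitals mark a GC box in Ptger3 and the E-box in Ptgs2, and sequences are from RefSeq.
Ptger3: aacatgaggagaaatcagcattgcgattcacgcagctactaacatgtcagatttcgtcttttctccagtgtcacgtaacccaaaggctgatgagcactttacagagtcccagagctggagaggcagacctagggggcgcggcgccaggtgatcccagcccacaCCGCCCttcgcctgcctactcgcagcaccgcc
Ptgds: cataaatagggggtctccacagtgccctct
Ptgs2: tcaccactacgtCACGTGgagtccgcttta
Ptgs2 held 1 E-box, beginning at base 17 counted from the start, and the other 7 windows held none; of 32851 windows of this length, 7.15% held one. GC boxes, present in 35.7% of windows, numbered 4 in Ptger4, 3 in Ptger3, 2 in Ptges, 2 in Ptgfr and 1 in Ptgs2, and none in Ptgds, Ptger2 or Ptgs1. The Ptger3 window held 27 CpG dinucleotides and the Ptgds window 2, so the windows of the genes highest in Myc tumours differed in base make-up. A motif match in these windows is a description and not a binding site.

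Ptger3, the EP3 receptor, was above background in Myc tumours only, on all 6 of their arrays and on none of the other 9. Ptgs2 averaged above background in every group but GFP-positive cells, and Ptger4 in Myc tumours and GFP-negative cells. Ptges and Ptgis were near or under background outside GFP-negative cells, and Ptger1, Ptger2 and Ptgfr did not exceed background on any array. In GFP-positive against GFP-negative cells, 5 of the 9 genes were lower, beside 26.3% of all genes that changed in either direction. The reason stated for the list does not use this comparison, although the list was chosen with earlier results of these data known.

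**Figure D1:**
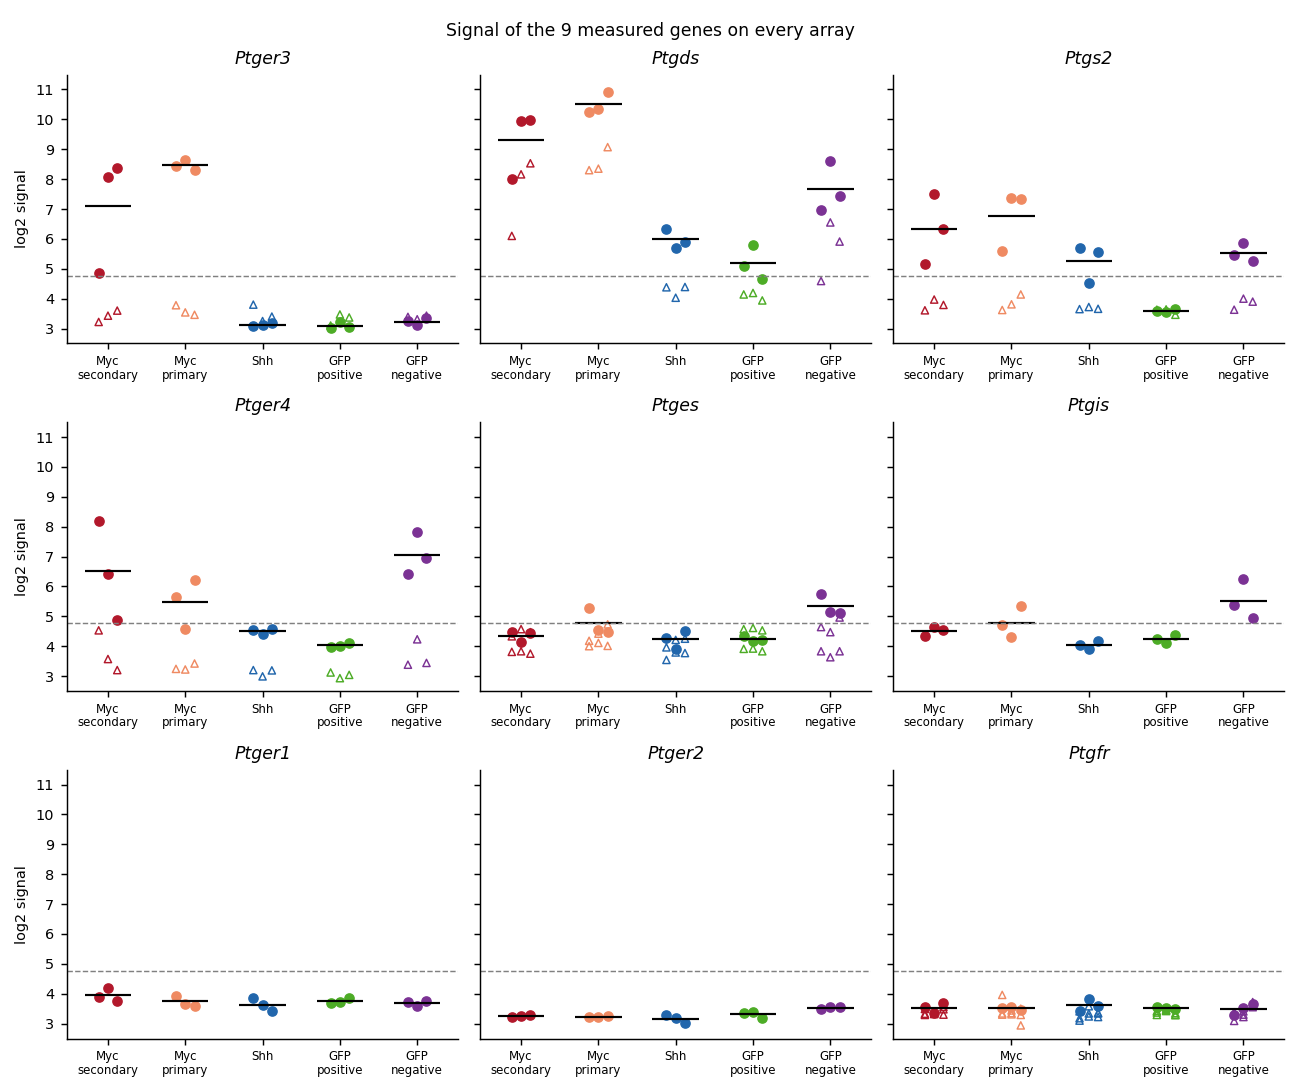
Log2 signal (vertical axis) of the 9 measured genes on each of the 15 arrays, by group. Filled circles are the probe set used for the gene, open triangles its other probe sets, bars the group mean and the dashed line the background of 4.77. Ptger3 reaches 8.31 to 8.64 in Myc primary tumours and stays at or under 3.34 in the 9 Shh and sorted arrays.

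Each comparison was tested with limma over all genes, and a gene was called when its Benjamini-Hochberg adjusted p was below 0.05. Between Myc primary and Shh tumours 2 of the 9 genes were called, Ptger3 and Ptgds, both higher, beside 15.8% of all genes, or 8.46% higher and 7.33% lower; nothing is read from this count, since the choice of genes used it. Limma called none of the other 7, with Ptges, Ptgis and Ptgs2 at an unadjusted p below 0.05. Ptger3 and Ptgds are therefore left out of the counts between Myc tumours and the other groups that follow, which are over the other 7 genes. Between Myc secondary and Shh tumours 1 of the 7 was called, Ptger4, beside 22.8% of all genes, or 10.5% higher and 12.3% lower. Between Myc secondary and Myc primary tumours limma called none of the 9, with Ptgds alone at an unadjusted p below 0.05, beside 0.719% of all genes. Against GFP-positive cells, 2 of the 7 were called in Myc secondary tumours, Ptgs2 and Ptger4 (25.3% of all genes), and 1 in Myc primary tumours, Ptgs2 (24.8%), all higher. Against GFP-negative cells, 3 of the 7 were called in Myc secondary tumours, Ptger2, Ptges and Ptgis (37.4% of all genes), and 1 in Myc primary tumours, Ptger2 (33.8%), all lower, although Ptger2 lay below background on every array. Shh tumours and GFP-positive cells differed in none of the 9 by limma, with Ptgs2 alone at an unadjusted p below 0.05, beside 7.56% of all genes. Shh tumours differed from GFP-negative cells in 5 genes, all lower in Shh tumours, the dim Ptger2 among them, beside 29% of all genes called in either direction. GFP-positive differed from GFP-negative cells in 5 genes, all lower in GFP-positive cells, beside 26.3% of all genes called in either direction. The median difference of the 9 genes was -1.09 between GFP-positive and GFP-negative cells, against 0.04 over all genes, and -0.36 between Shh tumours and GFP-negative cells, against 0.01 over all genes.

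**Figure D2:**
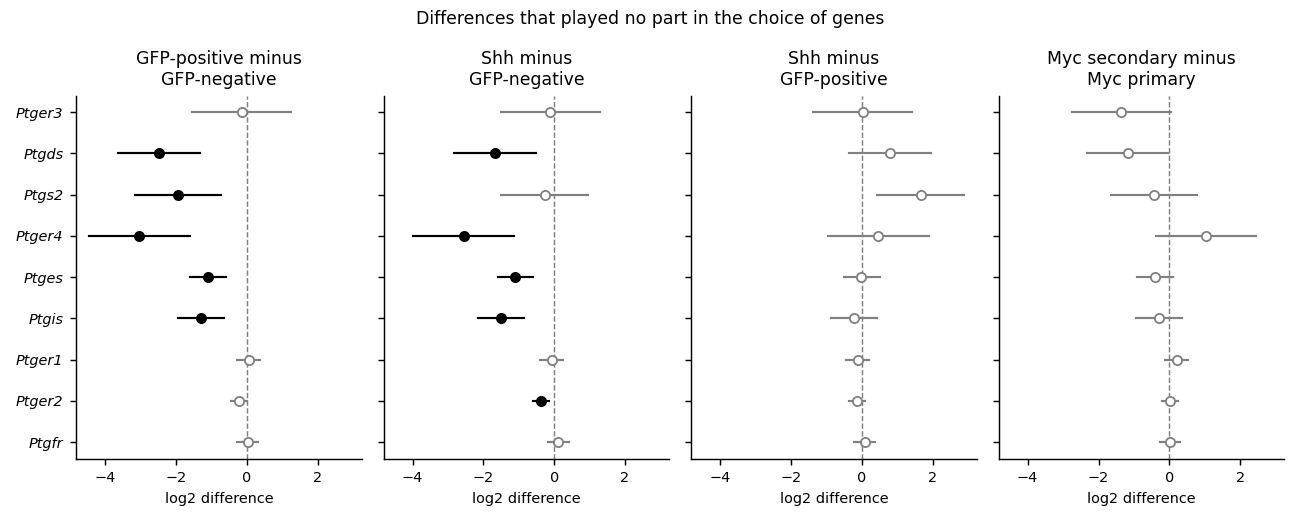
Log2 difference (horizontal axis) of each measured gene in the 4 comparisons that the reason stated for the list does not use. Points are estimates from the limma fit over 5 groups of 3 arrays, lines their 95% intervals, and filled points the genes called after adjustment over all genes; Ptger4 shows the largest estimate, -3.03 between GFP-positive and GFP-negative cells.

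Ptgs2, cyclooxygenase 2, was measured at 5.17, 7.49 and 6.33 in Myc secondary tumours, 5.60, 7.37 and 7.35 in Myc primary tumours and 5.71, 4.51 and 5.56 in Shh tumours. Among sorted cells it stood at 3.58, 3.55 and 3.67 in GFP-positive cells and 5.45, 5.87 and 5.26 in GFP-negative cells. The GFP-positive arrays were the lowest of all and overlapped with no other group, the Myc arrays were widely spread within each group, and Shh tumours and GFP-negative cells overlapped. The gene rose by 3.18 ± 0.56 (SE) in Myc primary tumours against GFP-positive cells (adjusted p = 0.0012) and by 2.73 ± 0.56 in Myc secondary tumours (adjusted p = 0.0029). Because no GFP-positive array exceeded background, these are bounds on the fold, at least 4-fold for Myc primary and at least 2.95-fold for Myc secondary tumours, the background level standing for the dim group here and wherever a fold is given as a bound. In GFP-positive against GFP-negative cells Ptgs2 fell by 1.93 on the log2 scale (adjusted p = 0.022), at least 1.7-fold; this call was lost without GFP-negative array 2 (adjusted p = 0.077) and without any GFP-positive array (0.055 to 0.063). Shh tumours also read higher than GFP-positive cells, by 1.66 ± 0.56 (adjusted p = 0.099, 95% interval 0.44 to 2.88), which was not called. Between Myc primary and Shh tumours the difference was 1.52 ± 0.56 (adjusted p = 0.089), with a 95% interval of 0.30 to 2.73. Without Myc primary array 1 that difference was 2.10 (adjusted p = 0.024). Between Myc secondary and Shh tumours it was 1.07 (adjusted p = 0.2), and 1.65 without Myc secondary array 1 (adjusted p = 0.043). The second probe set of Ptgs2 lay between 3.46 and 4.14 on all 15 arrays and carried no signal above background.

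Ptgds, the synthase of prostaglandin D2, was measured at 7.99, 9.96 and 9.99 in Myc secondary tumours and at 10.23, 10.33 and 10.93 in Myc primary tumours. It stood at 6.32, 5.71 and 5.91 in Shh tumours, 5.09, 5.78 and 4.67 in GFP-positive cells, and 6.95, 8.59 and 7.42 in GFP-negative cells. The Myc primary arrays were above every other array, and Myc secondary array 1 was the only Myc array that fell among the GFP-negative ones. As a description, the Myc primary mean of 10.50 ± 0.38 (SD, n = 3) was 22.9-fold above the Shh mean of 5.98 ± 0.31 and 39.9-fold above the GFP-positive mean of 5.18 ± 0.56. The Myc secondary mean of 9.32 ± 1.15 was 10.1-fold above the Shh mean and 3.16-fold above the GFP-negative mean of 7.66 ± 0.84; without Myc secondary array 1 the mean was 9.98 and these folds 15.9 and 5.0. The second probe set of Ptgds was brighter in Myc than in Shh tumours too, at lower signal, with 6.10, 8.16 and 8.53 in Myc secondary, 8.30, 8.35 and 9.07 in Myc primary, and 4.38, 4.03 and 4.39 in Shh tumours.

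The comparisons of Ptgds that the reason stated for the list does not use were tested. In GFP-positive against GFP-negative cells Ptgds fell by 2.48 on the log2 scale (SE 0.53, adjusted p = 0.0037), and all 3 GFP-positive arrays lay below all 3 GFP-negative ones. In Shh tumours against GFP-negative cells it fell by 1.67 (adjusted p = 0.031). This call rested on single arrays, the adjusted p being 0.095 without Shh array 2, 0.077 without Shh array 3, 0.13 without GFP-negative array 2 and 0.052 without GFP-negative array 3. The second probe set gave -1.60 (adjusted p = 0.056) and -1.42 (adjusted p = 0.085) for these comparisons. Between Myc secondary and Myc primary tumours Ptgds differed by -1.18 ± 0.53 (adjusted p = 0.38), and by -0.52 without Myc secondary array 1. Shh tumours and GFP-positive cells differed by 0.80 ± 0.53 (adjusted p = 0.45, 95% interval -0.35 to 1.96). In the order Myc primary, Myc secondary, GFP-negative, Shh and GFP-positive, the first pair and the last pair of neighbours were thus not separated by the test.

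RNA came from mixed cells, so a lower signal can be fewer cells of a type or less RNA per cell, and these cannot be told apart. Markers of the cell types known for Ptgds were therefore set beside it, with signals summed over each list. The 9 measured meningeal and fibroblast markers summed to 9.53 to 9.84 in Myc secondary tumours, 9.62, 11.46 and 12.24 in Myc primary tumours, 8.18 to 9.82 in Shh tumours, 7.34 to 7.60 in GFP-positive and 11.84 to 13.08 in GFP-negative cells. Of these markers 4 exceeded background in each tumour group, 1 in GFP-positive and 8 in GFP-negative cells. Col3a1, a fibrillar collagen, averaged 8.60 in Myc secondary, 9.26 in Myc primary and 6.54 in Shh tumours and 4.44 in GFP-positive cells, and read 10.76, 11.80 and 10.43 on the arrays of GFP-negative cells. The growth factor Igf2 averaged 8.30, 10.16 and 8.13 and the proteoglycan Dcn 5.16, 6.87 and 5.02 in the tumour groups in that order, while the collagens Col1a1 and Col1a2 averaged below background in each of them, Col1a2 in GFP-negative cells too. On 5 of the 6 Myc arrays, Myc primary array 3 being the exception, the meningeal sum was below that of every GFP-negative array. On 5 of the 6, Myc secondary array 1 being the exception, Ptgds was above every GFP-negative array.

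The 11 oligodendrocyte lineage markers summed to 8.11 to 8.60 in Myc secondary tumours, 9.68, 8.31 and 12.85 in Myc primary tumours, 8.95 to 9.01 in Shh tumours, 7.84 to 7.93 in GFP-positive and 13.01 to 13.97 in GFP-negative cells. They exceeded background in 4, 9, 6, 4 and 9 of 11 cases in that order of groups, and Mbp, Cldn11 and Cnp, myelin genes, averaged 8.61, 7.75 and 7.03 in Myc primary tumours. The myelin gene Mog was above background on 1 tumour array, Myc primary 3, at 5.79, and averaged 5.47 in GFP-negative cells. Myc primary array 3, with the highest Ptgds signal of 10.93, also had the highest meningeal and oligodendrocyte sums among tumours. The other Myc primary arrays read 10.23 and 10.33 for Ptgds, with oligodendrocyte sums of 9.68 and 8.31. The choroid plexus carrier protein Ttr was at 11.61, 4.14 and 7.98 in Myc secondary tumours, 9.55, 9.53 and 3.79 in Myc primary tumours, 3.86 to 3.95 in Shh tumours, 4.10, 4.10 and 6.54 in GFP-positive cells and 8.47, 13.06 and 8.76 in GFP-negative cells. The Myc array with most Ttr was the one with least Ptgds, and Ttr lay under background on Myc primary array 3, which had most Ptgds, and on Myc secondary array 2. Of the 9 choroid plexus markers 1 averaged above background in Myc secondary tumours and 2 in each other group, Folr1, Kl and Aqp1 averaging below background in every group. Otx2 of this list averaged 3.67 in Myc secondary, 5.45 in Myc primary and 9.03 in Shh tumours and 8.75 in GFP-positive cells. Clic6 averaged 4.58, 3.73 and 7.64 in the tumour groups in that order. GFP-negative array 2, with most Ptgds of its group at 8.59, read 6.47 for Folr1 and 5.63 for Aqp1, above background. The part of these cell types in the Ptgds signal was not tested, and sums over mixed cells cannot tell which cells gave it.

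**Figure D3:**
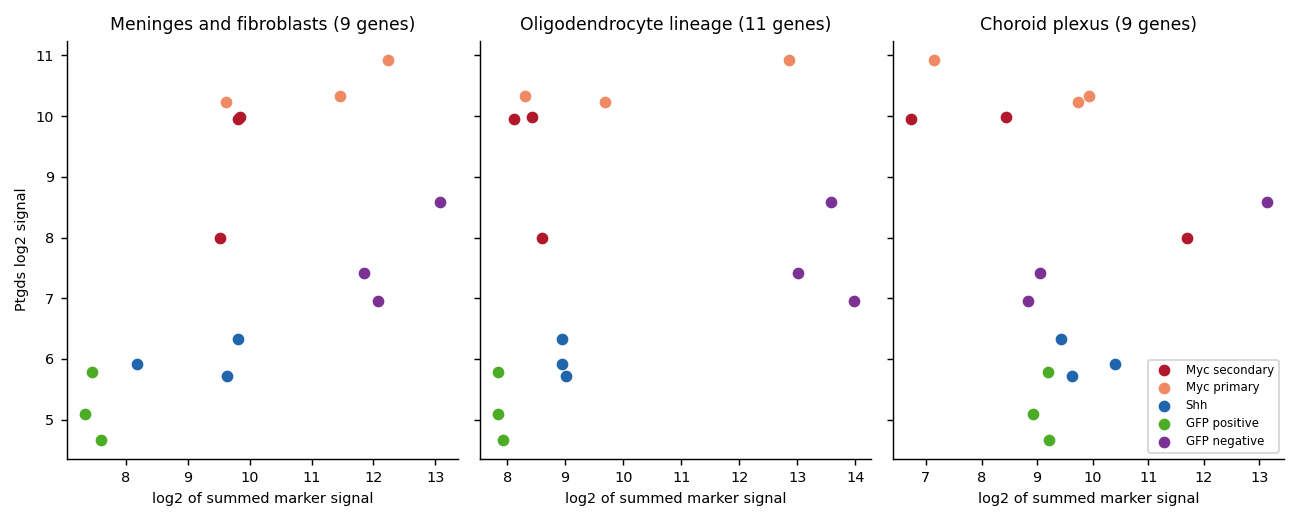
Ptgds log2 signal (vertical axis) on each of the 15 arrays against the log2 of the summed signal of meningeal and fibroblast, oligodendrocyte lineage and choroid plexus markers (horizontal axes), coloured by group. The Myc secondary arrays with Ptgds at 9.96 and 9.99 have oligodendrocyte sums of 8.11 and 8.42, while GFP-negative arrays have sums of 13.01 to 13.97 at lower Ptgds. In Shh tumours the choroid plexus sum comes mostly from Otx2 and Clic6, averaging 9.03 and 7.64, with Ttr at 3.91. In GFP-positive cells it comes mostly from Otx2, averaging 8.75.

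Ptges, the inducible microsomal prostaglandin E synthase, was dim: 4.48, 4.13 and 4.43 in Myc secondary tumours, 5.27, 4.55 and 4.47 in Myc primary tumours and 4.28, 3.92 and 4.52 in Shh tumours. In sorted cells it read 4.35, 4.19 and 4.20 in GFP-positive and 5.74, 5.16 and 5.12 in GFP-negative cells. All GFP-negative arrays and a single tumour array, Myc primary 1, exceeded background. Against GFP-negative cells, Ptges fell by 1.09 in GFP-positive cells (adjusted p = 0.0037). It was also lower in Shh tumours (-1.10, adjusted p = 0.0035) and in Myc secondary tumours (-0.99, adjusted p = 0.0045), in each case at least 1.49-fold. Its 2 other probe sets gave -0.12 (adjusted p = 0.66) and 0.12 (adjusted p = 0.46) for GFP-positive against GFP-negative cells. For Myc secondary tumours they gave -0.24 (adjusted p = 0.29) and 0.03 (adjusted p = 0.84), so both calls rest on 1 of 3 probe sets. For Shh tumours they gave -0.55 (adjusted p = 0.022), with both group means under background, and -0.06 (adjusted p = 0.73).

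Ptgis, prostacyclin synthase, read 4.35, 4.63 and 4.55 in Myc secondary tumours, 4.71, 4.31 and 5.34 in Myc primary tumours and 4.04, 3.91 and 4.16 in Shh tumours. It read 4.23, 4.11 and 4.39 in GFP-positive and 5.37, 6.26 and 4.94 in GFP-negative cells, where alone all 3 arrays exceeded background. Against GFP-negative cells it was lower in GFP-positive cells (-1.28, adjusted p = 0.0064) and in Shh tumours (-1.49, adjusted p = 0.0025), in both cases at least 1.68-fold. In Myc secondary tumours the difference was -1.01 (adjusted p = 0.017), and -0.65 without GFP-negative array 2 (adjusted p = 0.07). In Myc primary tumours it was -0.74 (adjusted p = 0.078), and -1.03 without GFP-negative array 3 (adjusted p = 0.017). Prostacyclin synthase is known from vessel walls and fibroblasts, and the 10 endothelial and mural markers summed to 9.64 to 9.82 in Myc secondary, 9.46 to 11.36 in Myc primary and 8.56 to 9.56 in Shh tumours, 7.41 to 7.83 in GFP-positive and 11.11 to 12.19 in GFP-negative cells. The array with most Ptgis, GFP-negative 2, also had the highest endothelial and meningeal sums of all arrays; their part in its signal was not tested.

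Among the receptors, Ptger3 was measured at 4.86, 8.08 and 8.37 in Myc secondary tumours and 8.44, 8.64 and 8.31 in Myc primary tumours. It read 3.09, 3.11 and 3.18 in Shh tumours, 3.01, 3.23 and 3.04 in GFP-positive and 3.25, 3.11 and 3.34 in GFP-negative cells. No Myc array overlapped with the others, and 5 of the 6 Myc arrays lay between 8.08 and 8.64, with Myc secondary array 1 far below them and just above background. As a description, Myc primary tumours (8.46 ± 0.17, SD, n = 3) were at least 12.9-fold and Myc secondary tumours (7.10 ± 1.95) at least 5.03-fold higher than each of the other 3 groups, whose arrays all lay under background. The differences as measured against Shh tumours were 3.98 ± 0.65 (SE) for Myc secondary and 5.34 ± 0.65 for Myc primary tumours, and 5.10 for Myc secondary tumours without array 1, when the bound of 5.03 became 11-fold. Among the tested comparisons, Myc secondary and Myc primary tumours differed by -1.36 ± 0.65 (adjusted p = 0.42, 95% interval -2.76 to 0.04), and by -0.24 without Myc secondary array 1. The Shh and sorted groups differed among themselves by 0.14 or less in size, below background and with adjusted p of 0.92 or more.

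Ptger3 had a second probe set, which lay between 3.10 and 3.8 on all 15 arrays and so carried no signal in the Myc tumours. With the mean of both probe sets in place of the brighter one, the differences from Shh tumours were 1.96 for Myc secondary and 2.72 for Myc primary tumours. The high level of Ptger3 in Myc tumours therefore comes from 1 of its 2 probe sets, and which transcripts each probe set reads was not analysed here.

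Ptger4, the EP4 receptor, was measured at 8.20, 6.41 and 4.89 in Myc secondary tumours, 5.64, 4.56 and 6.21 in Myc primary tumours and 4.54, 4.40 and 4.57 in Shh tumours. It read 3.98, 4.01 and 4.11 in GFP-positive and 6.42, 7.82 and 6.94 in GFP-negative cells. GFP-negative cells lay above all GFP-positive and Shh arrays, and Myc secondary arrays were the most spread and overlapped with GFP-negative and Myc primary ones. Against GFP-negative cells Ptger4 was lower in GFP-positive cells (-3.03 ± 0.66, adjusted p = 0.0039) and in Shh tumours (-2.56, adjusted p = 0.011), both at least 4.9-fold. It rose in Myc secondary tumours against GFP-positive cells by 2.47 ± 0.66 (adjusted p = 0.014). Against Shh tumours the rise was 2.0 ± 0.66 (adjusted p = 0.044), and both were at least 3.32-fold. With only the 6 arrays of each comparison, neither rise was called. The call against Shh tumours was lost without Myc secondary array 1 (1.15, adjusted p = 0.14), without Myc secondary array 2 (adjusted p = 0.093) and without any Shh array (0.089 to 0.11). Without Myc secondary array 1 the difference from GFP-positive cells was 1.62 (adjusted p = 0.036) and the bound 1.84-fold, and that from GFP-negative cells was -1.41 (adjusted p = 0.049), against -0.56 (adjusted p = 0.56) with all arrays. Myc secondary array 1, highest for Ptger4 among all 15 arrays, was the lowest Myc array for both Ptger3 and Ptgds. The second probe set of Ptger4 stayed between 2.93 and 4.53, under background on every array, with -0.65 between GFP-positive and GFP-negative cells (adjusted p = 0.13).

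EP4 is expressed by macrophages and microglia, whose 10 markers summed to 8.74 to 10.14 in Myc secondary tumours, 8.69 to 9.22 in Myc primary tumours, 8.49 to 9.12 in Shh tumours, 7.20 to 7.50 in GFP-positive and 12.73 to 14.02 in GFP-negative cells. All 10 exceeded background in GFP-negative cells and none did in GFP-positive cells, against 7 in Myc secondary and 6 in each of Myc primary and Shh tumours. Myc secondary array 1, with Ptger4 at 8.20, had the lowest of the 3 Myc secondary microglial sums, 8.74. The part of these cells in the Ptger4 signal was not tested.

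The remaining receptors gave no signal above background. Ptger1, the EP1 receptor, read 3.41 to 4.19, Ptger2, the EP2 receptor, 3.02 to 3.57, and the 4 probe sets of Ptgfr 2.94 to 3.96 over all arrays. Ptger2 passed the test against GFP-negative cells in Myc secondary tumours (-0.28, adjusted p = 0.048), Myc primary tumours (-0.31, adjusted p = 0.036) and Shh tumours (-0.36, adjusted p = 0.018), but with every value under background these differences give no fold and no order of levels. The first call was lost whichever array of its groups was left out, such as Myc secondary array 1 (adjusted p = 0.1) or GFP-negative array 3 (0.062). The second was lost without any array of its groups but GFP-negative array 1, with adjusted p = 0.051 without GFP-negative array 3. The third was lost without Shh array 3 and without GFP-negative array 2. Over the list, 6 of the 9 measured genes passed a filter that asked for 1 group mean above background, and 10 of the 18 probe sets exceeded it on no array.

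The other genes of prostanoid synthesis, transport, breakdown and reception formed a list of 25, of which 21 were measured. In Myc primary against Shh tumours 2 of them rose, 1 fell and 18 did not pass, beside 15.8% of all genes called. The median difference was 0.22 against 0.08 over all genes. In Myc secondary against Shh tumours 3 rose, 2 fell and 16 did not pass, beside 22.8% of all genes called, with a median of 0.20 against 0.07. Abcc4, a transporter that exports prostaglandins and cyclic nucleotides from cells, was at 7.38, 6.85 and 7.39 in Myc secondary tumours, 7.23, 8.05 and 7.66 in Myc primary tumours and 4.10, 4.73 and 5.09 in Shh tumours. It rose in both, by 2.56 ± 0.46 in Myc secondary (adjusted p = 0.0016) and by 3.0 ± 0.46 in Myc primary tumours (adjusted p = 0.00082), with no overlap between the Myc and Shh arrays. Ptges2, a membrane-associated prostaglandin E synthase, rose by 1.39 ± 0.39 in Myc primary tumours (adjusted p = 0.031), at 7.69, 7.74 and 8.02 against 6.60, 6.44 and 6.26 in Shh tumours.

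Ptgr1, a reductase that inactivates prostaglandins and leukotriene B4, was at 4.67, 4.82 and 5.03 in Myc secondary tumours, 5.69, 6.10 and 6.64 in Myc primary tumours and 7.08, 7.17 and 8.62 in Shh tumours. All Myc arrays lay under all Shh arrays. The differences from Shh tumours were -2.78 in Myc secondary (adjusted p = 0.00011) and -1.48 in Myc primary tumours (adjusted p = 0.011). Slco2a1, the prostaglandin uptake transporter, rose in Myc secondary against Shh tumours by 1.80 ± 0.53 (adjusted p = 0.027), or by 2.47 without Myc secondary array 1 (adjusted p = 0.0013), and Ptges3, the cytosolic synthase that is also an Hsp90 co-chaperone, by 0.40 ± 0.10 (adjusted p = 0.01). Ptgdr, the receptor for prostaglandin D2, averaged 5.66 in Myc secondary, 5.52 in Myc primary and 5.46 in Shh tumours, 5.53 in GFP-positive and 5.40 in GFP-negative cells, so it lay above background everywhere and passed the test in no comparison. The other prostaglandin D2 receptor, Ptgdr2, averaged between 3.6 and 3.93, below background.

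In GFP-positive against GFP-negative cells 7 of the 21 genes fell, 2 rose and 12 did not pass, beside 26.3% of all genes called. The median was -0.11 against 0.04 over all genes. Hpgds, the haematopoietic prostaglandin D synthase, was at 3.61, 3.69 and 3.65 in GFP-positive and 6.61, 8.03 and 7.83 in GFP-negative cells and fell by 3.84 (adjusted p = 1.6e-06). The prostaglandin-degrading dehydrogenase Hpgd (-3.32, adjusted p = 1.1e-05) and thromboxane synthase Tbxas1 (-1.81, adjusted p = 0.0002) fell too, while Prxl2b, prostamide and prostaglandin F synthase, rose by 2.21 ± 0.25 (adjusted p = 3.5e-05). Hpgds read 3.52 to 4.39 on the 9 tumour arrays, below background, so the prostaglandin D synthase with signal in Myc tumours was Ptgds.

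**Figure D4:**
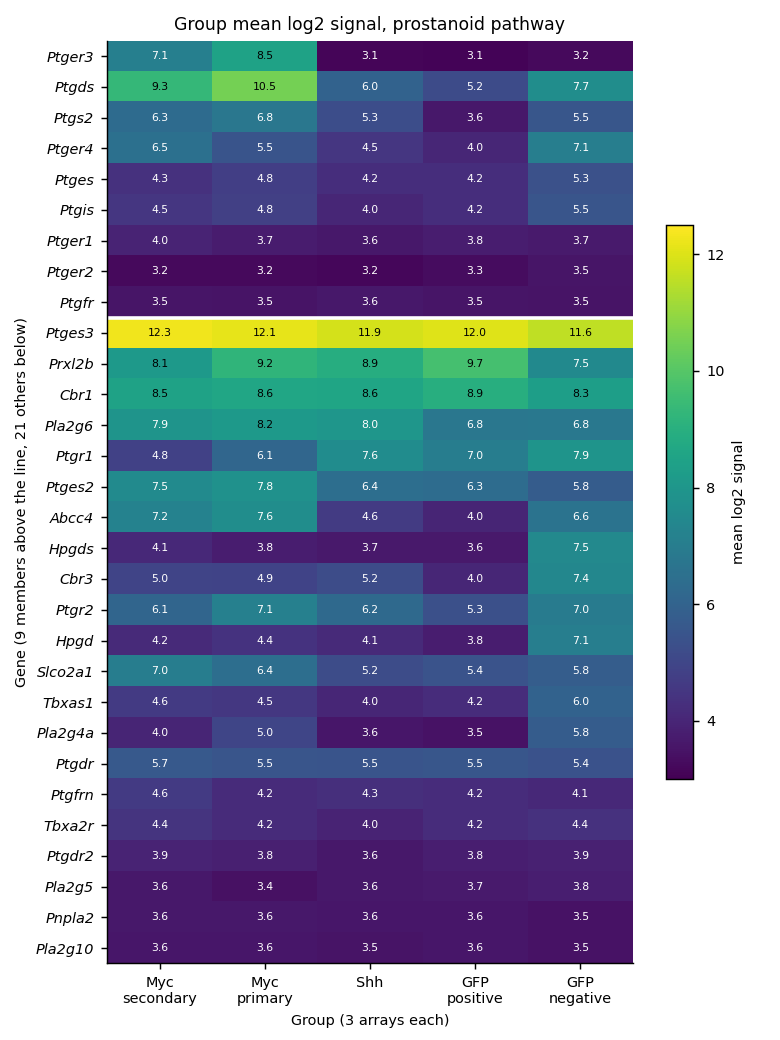
Group mean log2 signal (colour and printed value, 3 arrays each) of the 9 measured genes, above the white line, and of 21 other prostanoid pathway genes below it. Rows are read from left to right only, since levels of different probe sets are not comparable; Abcc4 is at 7.21 and 7.64 in Myc secondary and primary tumours and at 4.64 in Shh tumours.

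EP2, EP3 and EP4 act on cyclic AMP and EP1 on calcium, and 26 of 28 listed genes of G proteins, adenylyl cyclases, phosphodiesterases and cyclic AMP effectors were measured. In Myc primary against Shh tumours 3 rose, 4 fell and 19 did not pass, and in Myc secondary against Shh tumours 1 rose, 7 fell and 18 did not pass, with medians of 0.00 and -0.30 against 0.08 and 0.07 over all genes, of which 15.8% and 22.8% were called. Adcy5, an adenylyl cyclase inhibited by Gi, was at 4.22, 4.05 and 4.14 in Myc secondary tumours, 3.87, 4.24 and 3.96 in Myc primary tumours and 6.56, 7.0 and 5.80 in Shh tumours, with differences of -2.31 for Myc secondary (adjusted p = 0.00061) and -2.43 for Myc primary tumours (adjusted p = 0.00068). Gnai2, the Gi alpha subunit 2, was lower in Myc secondary (-1.81, adjusted p = 6.4e-05) and in Myc primary tumours (-1.05, adjusted p = 0.0042). Gnai1, another Gi subunit and named after its value was seen, rose by 0.78 ± 0.24 in Myc primary tumours (adjusted p = 0.042). Prkar2a, a regulatory subunit of protein kinase A, rose by 1.33 ± 0.24 in Myc secondary (adjusted p = 0.0016) and 1.24 ± 0.24 in Myc primary tumours (adjusted p = 0.0037). Members of this list therefore moved in both directions, the Gi subunits included.

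The genes whose signal ran most like that of Ptger3 over the 15 arrays were Lgi2 (Pearson r = 0.987), Hapln4 (0.971), Umodl1 (0.967), Ccdc40 (0.966) and Gne (0.964). Lgi2 read 5.77, 8.09 and 8.27 in Myc secondary tumours, 8.57, 8.04 and 7.95 in Myc primary tumours and 4.17 to 5.01 on the other 9 arrays, so it shared with Ptger3 the low Myc secondary array 1. For Ptgds the nearest were Atox1 (r = 0.951), Pawr (0.948), Acsl5 (0.947), Avpi1 (0.945) and Nadk (0.944), which were high in Myc tumours and higher in GFP-negative than in GFP-positive cells. These correlations describe arrays that fall into separate groups and share 1 normalization, and carry no test.

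**Figure D5:**
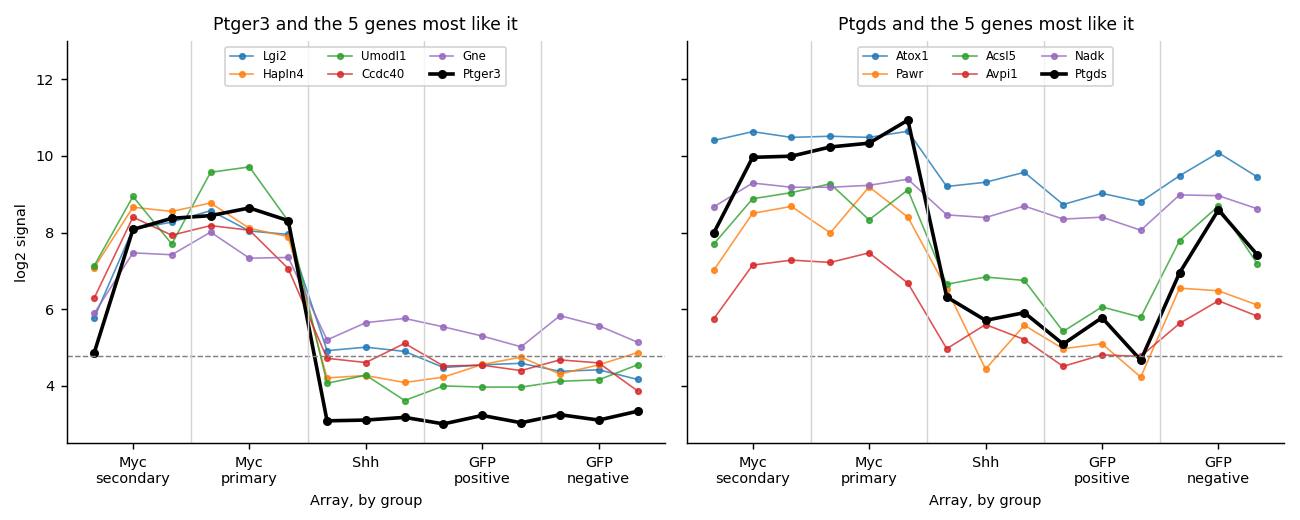
Log2 signal (vertical axis) of Ptger3 (left) and Ptgds (right) in black on the 15 arrays, in order of group, with the 5 genes of highest Pearson correlation in colour; the dashed line is background. On Myc secondary array 1 Ptger3 reads 4.86 and Lgi2 5.77, below their values on the other Myc arrays.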

How the data were processed

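The deposited values are log2 signals that the authors made by robust multi-array averaging (RMA) with Partek 6.5, per the submitters' processing notes; RMA's version and settings are not given in the sources used here. RMA draws the arrays towards 1 common distribution and compresses low signals, so differences near background are understated. The deposited arrays still differed, with medians of 4.64 to 4.89 and interquartile ranges of 2.99 to 3.78. Controls (104 probe sets), 551 probe sets with several genes and 15588 without a gene were left out. Each of 17097 genes was represented by its probe set of highest mean signal. Symbols of 28689 of 28898 probe sets were updated through RefSeq (GRCm38.p6). Tests used limma 3.58.1 (R 4.3.3): a one-way fit of all 5 groups, with 10 residual and 2.54 prior degrees of freedom, two-sided, with Benjamini-Hochberg adjustment over all genes of a comparison. Errors are SE from this fit, which shares 1 spread over all groups, or SD over 3 arrays; the number of arrays limits the precision. The fit was tested on simulated data. All members, the other list genes called with the smallest adjusted p (up to 4 a list, with other genes chosen after their values were seen) and the 5 nearest genes by correlation were named. The members and lists were chosen with earlier results of these data known. Alternatives were another summary of probe sets, a filter on dim genes, cyclic loess, fits on 6 arrays, a robust trended variance, a term for 2 runs of title numbers and arrays left out.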

Additional observations from a re-analysis of the deposited data

How the results depend on the processing

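The counts of called genes over all 9 genes kept within 1.5 times of those of the main fit under most alternatives. Between Myc tumours and the other groups they include Ptger3 and Ptgds, whose values the choice of genes used. Nothing is read from that, and the counts below leave both genes out there. A term was fitted for the 2 runs of title numbers, which only GFP-negative cells span, array 3 alone lying in the later run. Its size is therefore set by that array, and a run cannot be told apart from an odd array. With the term, none of the other 7 genes was called between Myc secondary and Shh tumours, in place of 1, beside 15.6% of all genes. Ptgs2 lost its call in Myc primary tumours against GFP-positive cells (2.78, adjusted p = 0.092). Myc primary and Shh tumours lie in the earlier run, so against GFP-negative cells this fit equals leaving array 3 out. Myc secondary tumours and GFP-positive cells lie in the later run. Against GFP-negative cells they are compared with array 3 alone, so only differences are given. In GFP-positive against GFP-negative cells the differences were then -2.24 for Ptgds, -0.87 for Ptges, -0.70 for Ptgis and -1.66 for Ptgs2. Their direction was kept. A run in the titles is not a stated batch. With only the 6 arrays of a comparison, Ptges alone of the 7 was called in Myc secondary tumours against GFP-negative cells, with 26.6% of all genes. In Myc secondary against Shh tumours Ptgis was called in place of Ptger4, with 20.2% of all genes. In Shh tumours against GFP-positive cells 2 genes were called, Ptger4 and Ptgs2, with 18.4% of all genes in place of 7.56%. Without Myc primary array 3, GFP-negative array 3 and Myc secondary array 1, Shh tumours and GFP-positive cells differed in 1, Ptgs2, with 16.1% of all genes. With each array of the 2 groups left out in turn, Ptges kept its call in Myc secondary tumours against GFP-negative cells and Ptger2 lost it each time. Ptgis lost it only without GFP-negative array 2, and Ptger4 gained one without Myc secondary array 1. In Shh tumours against GFP-negative cells, leaving out each array gave 3 to 5 of the 9 genes (3 without Shh array 3 or GFP-negative array 2). Ptger3 in Shh tumours against GFP-positive cells, below background, ranged between -0.01 and 0.1 with an array left out, turning sign without GFP-positive array 1. Other differences of single genes were scored the same in 255 cases under whole alternatives and in 188 with an array left out. For Ptger3 and Ptgds between Myc tumours and the other groups, the same meant a shift in size below the SD of the arrays, whatever the call. Elsewhere it meant the same direction and outcome of the test. The call was lost in 23 cases under whole alternatives, the run term among these, and in 27 with an array left out. The size moved in 7 under whole alternatives. Causes were not tested. No paired analysis was possible because the labels give no replicate numbers shared between groups. Signal under background limits Ptger1, Ptger2 and Ptgfr in all groups.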

Other observations

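The leukotriene branch, which starts from the same arachidonic acid, was measured in 9 of 10 listed genes. None passed limma's test in Myc primary against Shh tumours, where 2 had an unadjusted p below 0.05. In Myc secondary against Shh tumours 1 fell, Lta4h, the hydrolase that makes leukotriene B4, by 0.97 (adjusted p = 0.0029). Of all genes, 15.8% and 22.8% were called in these comparisons. In GFP-positive against GFP-negative cells 3 fell and the other 6 did not pass, beside 26.3% of all genes called. Alox5ap, the activating protein of 5-lipoxygenase, fell by 3.91 (adjusted p = 1.5e-06), with 4.51, 4.53 and 4.66 in GFP-positive and 7.86, 9.09 and 8.48 in GFP-negative cells, and leukotriene C4 synthase Ltc4s fell by 2.94 (adjusted p = 0.00011). Alox5ap read 3.87 to 5.28 on the 9 tumour arrays, under the level in GFP-negative cells on each. The microglial and macrophage markers given above were highest in GFP-negative cells too, and their part was not tested.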
